A study of Homo sapiens with 9 samples.

Results

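The STAT5 axis described here is a set of 10 genes: the transcription factors STAT5A and STAT5B, the cytokine OSM, the feedback inhibitors CISH, SOCS1, SOCS2 and SOCS3, and the kinases PIM1, PIM2 and PIM3. The genes were taken by name from the gene tables, and they are 10 of 26830 genes listed. Enough reads for a test were found for 9 of the 10, all but OSM, out of 13365 genes tested in all. RNA with poly(A) tails was measured in human NB4 cells 48 h after addition of FB23-2, of FB23 or of the solvent DMSO, with 3 libraries per group and 9 in all. The series title gives inhibition of FTO, an RNA demethylase, as the purpose of the compounds. All 3 groups carry the label NB4, which names a line grown from an acute promyelocytic leukaemia, while their cell type is given as acute monocytic leukemia. Doses are not in the labels, so FB23-2 and FB23 were set side by side at the same time only, and nothing in the labels says that the 3 libraries of a group came from separate cultures, so p-values may measure technical spread.

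STAT5A and STAT5B are closely related transcription factors that JAK kinases phosphorylate when a cytokine binds its receptor, after which they enter the nucleus and bind DNA as dimers. CISH and the SOCS genes are textbook targets of this pathway, and their proteins bind receptors or JAK kinases and damp the signal. The PIM genes encode serine/threonine kinases that act mainly through their abundance, support survival and growth of blood cells, and include reported STAT5 targets. OSM, oncostatin M, is a cytokine of the interleukin-6 family and another reported STAT5 target in blood cells.

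The libraries held 15207132 to 24595521 expected counts with FB23-2, 12360291 to 38410750 with FB23 and 16804604 to 18514243 with DMSO. A principal component analysis placed the 3 FB23-2 libraries on their own, away from the other 6, along an axis with 87.5% of the variance. The markers of the cells went against the NB4 label, which is kept here as a name only. The granule genes that define promyelocytes were close to absent: MPO and CTSG had 0 counts in all 9 libraries, and the summed level of the 5 listed granule genes was 1.05 to 1.77 TPM (transcript abundance relative to all transcripts, scaled for gene length) with FB23-2, 0.23 to 0.78 with FB23 and 0.76 to 1.56 with DMSO. Fetal and embryonic globin transcripts were abundant, with HBG2 at 1162 TPM with FB23-2, 9234 with FB23 and 8103 with DMSO, and HBZ at 231.8 TPM with FB23-2, 7973 with FB23 and 7165 with DMSO. The list of 10 red cell and platelet precursor markers, none at 0 in any group and its sum carried by globins, came to 3563 to 4002 TPM with FB23-2, 28896 to 30912 with FB23 and 25572 to 27055 with DMSO, while its platelet lineage marker ITGA2B was higher with FB23-2, at 2.22 TPM against 0.767 with FB23 and 0.797 with DMSO. The 7 listed myeloid and monocyte markers, none at 0 in any group, summed to 123 to 129 TPM with FB23-2, 69.3 to 73.3 with FB23 and 81.05 to 86.5 with DMSO. Within that list SPI1 was higher with FB23-2 (58.6 TPM, against 20.1 with FB23 and 25.1 with DMSO), CD33 was at 44.4, 38.8 and 44.0 TPM with FB23-2, FB23 and DMSO, and ITGAM was lower with FB23-2 than with DMSO (3.63 against 4.45 TPM). The 6 listed epithelial and fibroblast markers, none at 0, summed to 6639 to 7144 TPM with FB23-2, 1954 to 2037 with FB23 and 1694 to 1742 with DMSO. More of that sum came from VIM than from any other marker (3958 TPM with FB23-2, 1248 with FB23 and 1037 with DMSO). The epithelial keratins KRT8 (1373 against 227 TPM), KRT18 (973 against 288) and KRT19 (621 against 89.4) were also higher with FB23-2 than with DMSO. So was COL1A1, at 6.56 against 0.913 TPM. Of this list EPCAM alone, also an epithelial marker, was lower with FB23-2, at 25.5 TPM against 54.2 with FB23 and 73.5 with DMSO. The 5 listed lymphoid markers, with MS4A1 at 0 in all 9 libraries, stayed between 0.38 and 2.94 TPM. The part of these shifts in the results below was not tested, and in bulk RNA fewer cells of a type and less RNA per cell cannot be told apart.

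The stretch of DNA upstream of CISH is shown first, because it holds more copies of the STAT5 recognition pattern than the window of any other member. The pattern searched was TTCNNNGAA, where N is any base. It reads the same on both strands, so 1 search covers both. In the 250 bases before the CISH start (chr3:50611775-50612024, minus strand, sequence from RefSeq, GRCh38.p14) the pattern is found 4 times and is printed in capitals. The windows of PIM1 (chr6:37169902-37170151, plus strand) and SOCS1 (chr16:11256205-11256454, minus strand), the members with the largest rises with FB23-2 against DMSO, hold these letters 0 times.
CISH: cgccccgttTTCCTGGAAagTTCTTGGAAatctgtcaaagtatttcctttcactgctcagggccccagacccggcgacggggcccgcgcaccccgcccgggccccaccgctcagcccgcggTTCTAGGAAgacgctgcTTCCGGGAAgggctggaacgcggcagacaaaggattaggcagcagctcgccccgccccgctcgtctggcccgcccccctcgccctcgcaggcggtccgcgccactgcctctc
PIM1: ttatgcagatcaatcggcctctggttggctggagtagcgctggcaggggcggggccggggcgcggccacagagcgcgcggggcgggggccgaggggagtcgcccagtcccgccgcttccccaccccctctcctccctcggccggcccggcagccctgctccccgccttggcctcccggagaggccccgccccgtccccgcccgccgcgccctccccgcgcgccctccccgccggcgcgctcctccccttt
SOCS1: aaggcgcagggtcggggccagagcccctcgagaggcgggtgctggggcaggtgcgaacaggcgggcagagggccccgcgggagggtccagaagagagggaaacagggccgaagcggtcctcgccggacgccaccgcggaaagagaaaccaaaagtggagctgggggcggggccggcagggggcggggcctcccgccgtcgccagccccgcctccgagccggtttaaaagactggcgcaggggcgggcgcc
The 4 matches upstream of CISH are TTCCTGGAA, TTCTTGGAA, TTCTAGGAA and TTCCGGGAA, which begin 241, 230, 129 and 112 bases before the start, and none of them overlaps another. The window runs past the 5' end of the gene in GENCODE release 29 (chromosome 3, 50606490 to 50611831), and all 4 matches lie upstream of that end. Of 35116 upstream windows of the same length in the table, 2306 (6.57%) held the pattern at least 1 time, 125 (0.356%) at least 2 times and 5 (0.0142%) at least 4 times. Windows were given for 8 of the 10 members, all but SOCS2 and OSM, and those of the 7 members other than CISH held 0 matches. A match is only a string of letters and does not say that STAT5 binds there. Only the 250 bases before a listed start were searched, for this pattern alone. A count of 0 therefore does not say that a gene lacks STAT5 sites.

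STAT5A carried the largest change of the set with FB23-2, against DMSO and against FB23. With FB23 against DMSO the largest was that of SOCS1 (0.70 on the log2 scale). The STAT5A transcript (chromosome 17, 42287547 to 42311943, plus strand, GRCh38) was at 84.9, 88.6 and 84.8 CPM (reads of the gene relative to the library's reads, after TMM scaling) in the FB23-2 libraries, at 359, 364 and 366 CPM with FB23 and at 453, 454 and 460.1 CPM with DMSO. The 3 groups did not overlap, and FB23-2 lay lowest. With FB23-2 the level fell by 2.40 ± 0.04 on the log2 scale (SE, edgeR quasi-likelihood test, adjusted p = 6.18e-18), a level 5.29-fold lower than with DMSO. With FB23 it fell by 0.33 ± 0.04 (adjusted p = 1.98e-05), and FB23-2 stood 2.08 ± 0.04 below FB23 (log2 fold change -2.08, adjusted p = 4.59e-17). Among 13365 genes the fall of STAT5A ranked 241 with FB23-2 against DMSO and 954 with FB23 against DMSO. 

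STAT5B, which lies beside STAT5A on chromosome 17 (42199168 to 42276707, minus strand) and encodes a closely related factor, moved less. It was at 184, 186 and 183 CPM with FB23-2, at 278, 268 and 271 CPM with FB23 and at 269, 267 and 271 CPM with DMSO. All FB23-2 libraries lay below all others, while FB23 and DMSO overlapped. The level fell by 0.54 ± 0.04 (log2) with FB23-2 against DMSO (edgeR adjusted p = 5.65e-10) and by 0.56 ± 0.04 against FB23 (adjusted p = 3.76e-10). On deposited TPM these log2 fold changes were -0.29 and -0.33. FB23 against DMSO gave 0.02 ± 0.04, which did not pass the test (adjusted p = 0.799, 95% interval -0.07 to 0.10).

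Reads are shared between these neighbours. The expected counts of STAT5A and of STAT5B were fractional in 9 of 9 libraries, whereas their sum was whole in 9 of 9 and the 8 other members had whole counts throughout (within 0.005), so the split between the pair is an estimate. Summed into 1 feature, an alternative added after the data were seen, they were at 269, 275 and 268 CPM with FB23-2, at 637, 632 and 637 CPM with FB23 and at 722, 720.4 and 731 CPM with DMSO. The sum fell by 1.42 ± 0.04 (log2) with FB23-2 (edgeR adjusted p = 9.16e-16) and by 0.19 ± 0.04 with FB23 (adjusted p = 0.0018). In TPM, STAT5A made up 35.9% ± 0.384 of the pair with FB23-2, 61.6% ± 0.622 with FB23 and 67.1% ± 0.139 with DMSO (SD, n = 3 each). None of the groups overlapped in that share, and the exact permutation test over libraries, two-sided, gave p = 0.1 for each of the 3 comparisons, the smallest value that 3 against 3 allows. STAT5B was therefore the more abundant of the pair with FB23-2, at 61.6 against 34.5 TPM for STAT5A. With FB23 (77.2 against 124 TPM) and with DMSO (75.4 against 154 TPM) STAT5A was the more abundant.

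**Figure D1:**
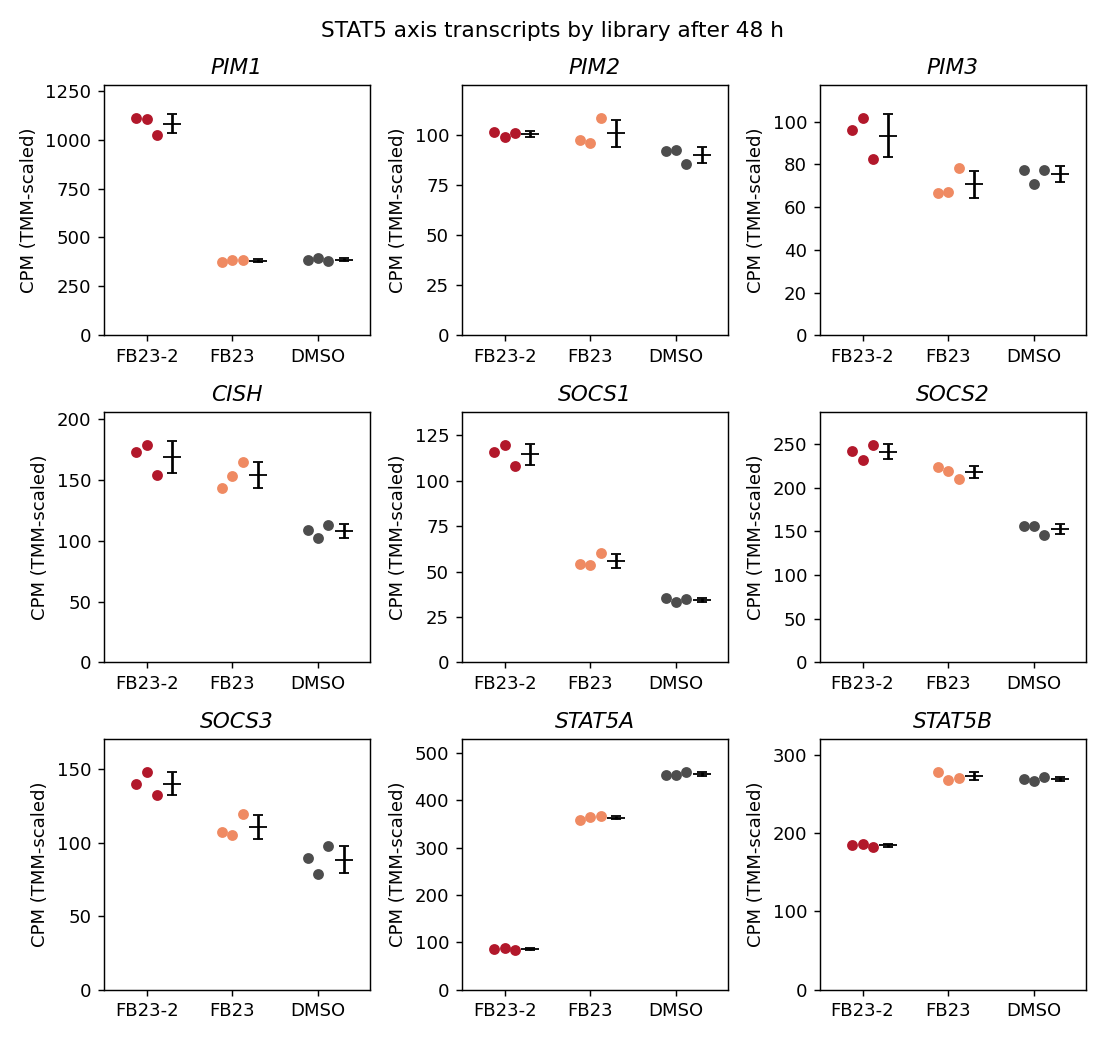
Level of each of the 9 tested STAT5 axis genes in every library, in CPM scaled by TMM factors, with FB23-2, FB23 and DMSO from left to right. Points are libraries and the cross with bars is the mean ± SD (n = 3); PIM1 is high with FB23-2, near 1080.3 CPM, SOCS1 descends from FB23-2 over FB23 to DMSO, and STAT5A is lowest with FB23-2 at 86.1 CPM.

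OSM, the only ligand in the set, was barely detected. It had 2 counts over the FB23-2 libraries, 1 over the FB23 libraries and 0 over the DMSO libraries. All of these counts were in replicate 3 of FB23-2 and replicate 3 of FB23. The 0 with DMSO allows up to 0.0595 CPM (3 counts over the group, counting error only), and the exact 95% Poisson interval of the FB23-2 counts reaches 0.117 CPM, so no difference was detectable at this depth and OSM was not tested.

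All 4 feedback inhibitors rose with FB23-2 and with FB23. SOCS1, which binds JAK kinases and blocks their activity (chromosome 16, 11254405 to 11256200, minus strand), was at 116, 119.7 and 108 CPM with FB23-2, at 53.9, 53.4 and 60.3 CPM with FB23 and at 35.5, 33.2 and 34.7 CPM with DMSO. The groups did not overlap and stood in the order FB23-2, FB23, DMSO from high to low. SOCS1 rose by 1.73 ± 0.06 (log2, edgeR adjusted p = 2.68e-14) with FB23-2, 3.33-fold, which was the largest rise in the set. It rose by 0.70 ± 0.06 (adjusted p = 1.14e-06) with FB23, and FB23-2 was 1.03 ± 0.06 above FB23 (adjusted p = 1.50e-11).

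CISH, an SH2-domain protein that occupies activated cytokine receptors, and whose upstream window is printed above, was at 173, 179 and 154 CPM with FB23-2, at 143, 153 and 165 CPM with FB23 and at 108, 102 and 113 CPM with DMSO. Every library of either compound lay above every DMSO library, while the compounds overlapped each other. It rose by 0.65 ± 0.06 (log2, edgeR adjusted p = 3.61e-08) with FB23-2 and by 0.52 ± 0.06 (adjusted p = 2.59e-05) with FB23. The step between compounds was 0.13 ± 0.06 (95% interval 0.00 to 0.26), which did not pass (adjusted p = 0.0640). That step passed under 8 of 19 alternatives, among them deposited TPM, where it was 0.36 (limma adjusted p = 6.09e-05) and the groups no longer overlapped (139.5, 146 and 133 TPM with FB23-2 against 104, 109 and 113 TPM with FB23). Over the alternatives its adjusted p ran from 6.09e-05 to 0.295.

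SOCS2, which regulates growth hormone receptor signalling (chromosome 12, 93569814 to 93583487, plus strand), was at 241, 231.8 and 249 CPM with FB23-2, at 224, 219 and 210.1 CPM with FB23 and at 156, 156 and 145 CPM with DMSO. The groups did not overlap, and both compounds lay well above DMSO. SOCS2 rose by 0.66 ± 0.05 (log2, edgeR adjusted p = 4.41e-10) with FB23-2 and by 0.51 ± 0.05 (adjusted p = 1.36e-06) with FB23. FB23-2 was 0.14 ± 0.05 above FB23 (adjusted p = 0.0077), a call that was lost without the filter on low counts (0.09, adjusted p = 0.136) and was larger on deposited TPM (0.38).

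SOCS3, which damps signalling through the interleukin-6 receptor subunit gp130 (chromosome 17, 78356778 to 78360077, minus strand), was at 140.0, 148 and 132 CPM with FB23-2, at 107, 105 and 119.6 CPM with FB23 and at 89.3, 78.8 and 97.5 CPM with DMSO. The groups did not overlap. SOCS3 rose by 0.67 ± 0.07 (log2, edgeR adjusted p = 1.01e-07) with FB23-2 and by 0.33 ± 0.07 (adjusted p = 0.0032) with FB23, and FB23-2 was 0.34 ± 0.07 above FB23 (adjusted p = 2.04e-04), or 0.57 on deposited TPM.

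Summed per length, CISH, SOCS1, SOCS2 and SOCS3 reached 606 ± 10.1 TPM with FB23-2, 383 ± 3.05 TPM with FB23 and 264 ± 7.74 TPM with DMSO (SD, n = 3 each). SOCS1 made up 35.2% ± 0.605 of that sum with FB23-2, 23.3% ± 0.705 with FB23 and 20.6% ± 0.271 with DMSO. These shares did not overlap between groups (exact permutation test, two-sided, p = 0.1 for each of the 3 comparisons, the smallest possible). SOCS1 was thus the most abundant of the 4 with FB23-2. SOCS2 was the most abundant with FB23 and with DMSO, at 32.0% and 32.2% of the sum. CISH made up 23.1% with FB23-2, 28.3% with FB23 and 28.5% with DMSO, and SOCS3 made up 15.4% with FB23-2, 16.3% with FB23 and 18.7% with DMSO.

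**Figure D2:**
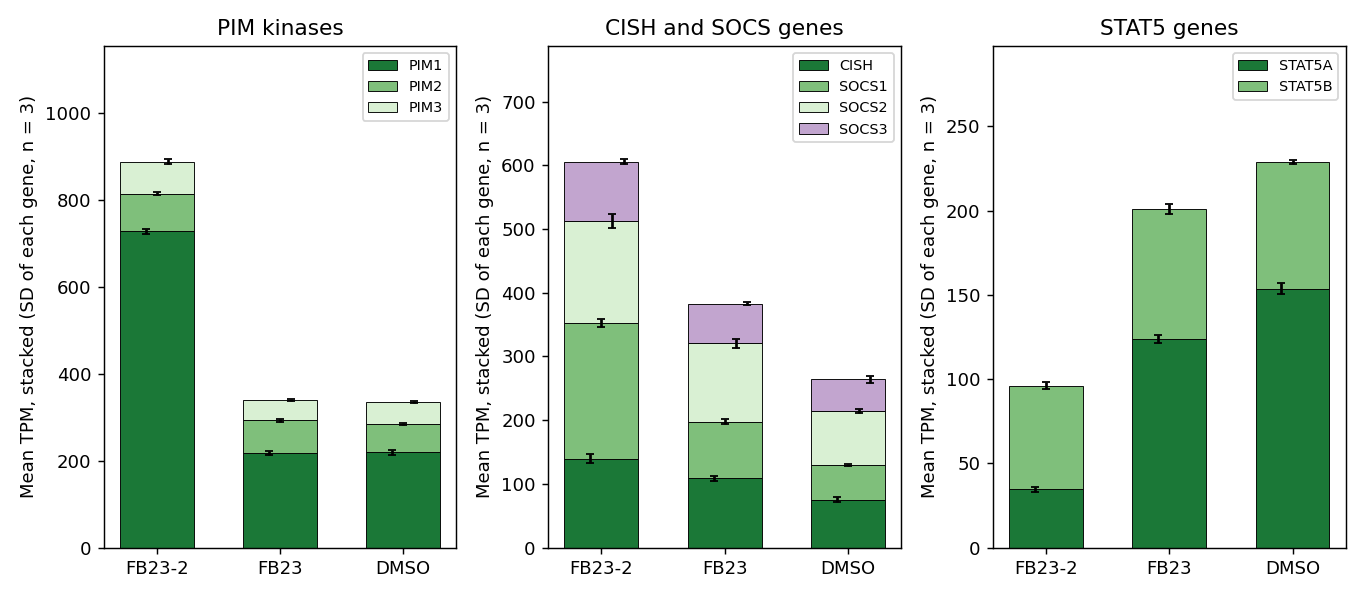
Mean TPM of the members stacked within each family, for FB23-2, FB23 and DMSO from left to right, with bars giving the SD of each member (n = 3). The PIM stack reaches 888 TPM with FB23-2, mostly PIM1, the CISH and SOCS stack is highest with FB23-2 and lowest with DMSO, and the STAT5 stack is lowest with FB23-2, where STAT5B is the larger piece.

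Of the PIM kinases, PIM1 rose most, and it rose with FB23-2 against both DMSO and FB23. PIM1, a kinase that phosphorylates the death factor BAD and cell-cycle phosphatases (chromosome 6, 37170203 to 37175426, plus strand), was at 1112, 1104 and 1025 CPM with FB23-2, at 372, 386 and 386 CPM with FB23 and at 384, 395 and 379.8 CPM with DMSO. All FB23-2 libraries lay far above the rest, and FB23 and DMSO overlapped. PIM1 rose by 1.48 ± 0.04 (log2, edgeR adjusted p = 2.62e-15) with FB23-2 against DMSO, 2.80-fold, and by 1.502 ± 0.04 (adjusted p = 2.93e-15) against FB23. With FB23 against DMSO the value was -0.02 ± 0.04 (95% interval -0.11 to 0.07, adjusted p = 0.816), and it turned to 0.0063 with library totals as the scale and to 0.014 without the filter. In TPM, PIM1 was the most abundant gene of the set in every group, ranking 159 among 26830 genes with FB23-2, 604 with FB23 and 610 with DMSO.

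PIM3, the third member of the family (chromosome 22, 49960513 to 49964080, plus strand), was at 95.9, 102 and 82.4 CPM with FB23-2, at 66.5, 67.3 and 78.1 CPM with FB23 and at 77.5, 71.0 and 77.5 CPM with DMSO. The FB23-2 libraries lay above all others, and FB23 and DMSO overlapped. PIM3 rose by 0.31 ± 0.08 (log2, edgeR adjusted p = 9.90e-04) with FB23-2 against DMSO and by 0.40 ± 0.07 (adjusted p = 9.49e-05) against FB23. On deposited TPM these differences were larger, at 0.55 and 0.63. FB23 against DMSO gave -0.08 ± 0.08, which did not pass (adjusted p = 0.469, 95% interval -0.24 to 0.08).

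PIM2, a kinase abundant in lymphoid and plasma cells (chromosome X, 48913182 to 48919024, minus strand), was at 102, 98.8 and 101 CPM with FB23-2, at 97.6, 95.8 and 109 CPM with FB23 and at 91.8, 92.5 and 85.2 CPM with DMSO. Both compounds lay above DMSO and overlapped each other, and the distances were small. PIM2 rose by 0.16 ± 0.05 (log2, edgeR adjusted p = 0.0118) with FB23-2 and by 0.17 ± 0.05 (adjusted p = 0.0342) with FB23. The first of these calls was lost without DMSO replicate 3 (0.11, adjusted p = 0.0939, and between 1.07e-05 and 0.0939 over 19 alternatives), and its size was 0.41 on deposited TPM. The second was lost under 6 of 19, among them without DMSO replicate 1 (0.0681), 2 (0.0566) or 3 (0.156), without FB23 replicate 3 (0.138), under the DESeq2 Wald test (0.0564) and with the replicate number as a block (0.0718). FB23-2 against FB23 gave -0.01 ± 0.05 (95% interval -0.12 to 0.11, adjusted p = 0.921). On deposited TPM this difference was 0.23 (limma adjusted p = 0.0011), with 85.6, 84.6 and 91.4 TPM with FB23-2 against 73.9, 71.4 and 77.6 TPM with FB23, so its sign depends on the scale.

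Together the PIM genes summed to 888 ± 8.83 TPM with FB23-2, 340.01 ± 2.49 TPM with FB23 and 334 ± 5.41 TPM with DMSO (SD, n = 3 each). PIM1 made up 81.9% ± 0.163 of the sum with FB23-2, 64.3% ± 1.57 with FB23 and 65.5% ± 0.683 with DMSO. The FB23-2 share lay above both others without overlap (exact permutation test, two-sided, p = 0.1, the smallest possible), and the shares with FB23 and DMSO overlapped (p = 0.4). The PIM2 share was 9.82% with FB23-2, 21.8% with FB23 and 19.6% with DMSO, and that of PIM3 was 8.23% with FB23-2, 13.9% with FB23 and 14.9% with DMSO.

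Per length, the order of the set also differed between groups. With FB23-2 it ran PIM1 (727 TPM), SOCS1 (213), SOCS2 (159), CISH (139.6), SOCS3 (93.3), PIM2 (87.2), PIM3 (73.1), STAT5B (61.6) and STAT5A (34.5), and of neighbours in this order SOCS3 and PIM2 overlapped in range. With FB23 it ran PIM1 (219), STAT5A (124), SOCS2 (123), CISH (109), SOCS1 (89.2), STAT5B (77.2), PIM2 (74.3), SOCS3 (62.6) and PIM3 (47.1), with overlap of STAT5A with SOCS2 and of STAT5B with PIM2. With DMSO it ran PIM1 (219), STAT5A (154), SOCS2 (84.9), STAT5B (75.4), CISH (75.3), PIM2 (65.6), SOCS1 (54.3), PIM3 (49.7) and SOCS3 (49.6), with overlap of STAT5B with CISH and of PIM3 with SOCS3. STAT5A stood at rank 2 of the set with FB23 and with DMSO and at rank 9 with FB23-2. Among all genes STAT5A ranked 3818 with FB23-2, 1140 with FB23 and 909 with DMSO.

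As a set, 9 of 9 tested members were called with FB23-2 against DMSO, 7 higher and 2 lower. In this comparison 82.6% of all tested genes were called, 41.3% higher and 41.3% lower, and the libraries of the 2 groups did not overlap in CPM for 9 of 9 members and 84.2% of all genes, so a share near the background says little about the members. The members' median log2 fold change was 0.65, against 0.01 over all genes, and their median size regardless of sign was 0.66, against 0.73 over all genes. With FB23 against DMSO, 6 of 9 were called, 5 higher and 1 lower, where 23.5% of all tested genes were called (12.3% higher and 11.2% lower). The libraries did not overlap for 6 of 9 members and 37.9% of all genes. Here the median log2 fold change of the members was 0.17, against 0.00 over all genes, and the median size was 0.33 against 0.14. Between the compounds, FB23-2 against FB23, 7 of 9 were called, 5 higher and 2 lower, where 81.5% of all tested genes were called (40.4% higher and 41.1% lower), and 7 of 9 members and 81.2% of all genes did not overlap. The members' median was 0.14 against 0.00, and their median size 0.40 against 0.66. A change of at least 2-fold was seen with FB23-2 against DMSO for 3 members (PIM1, SOCS1, STAT5A) and 4931 genes in all, and with FB23 against DMSO for 0 members and 305 genes. FB23-2 against DMSO and FB23 against DMSO share their DMSO libraries, so their values are given side by side and not as support for each other. Under upper-quartile factors the median of all genes shifted by 0.17 and under library totals by 0.15 with FB23-2 against DMSO, and the counts of members called higher and lower (7 and 2, 5 and 1) were unchanged under both in the comparisons with DMSO.

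**Figure D3:**
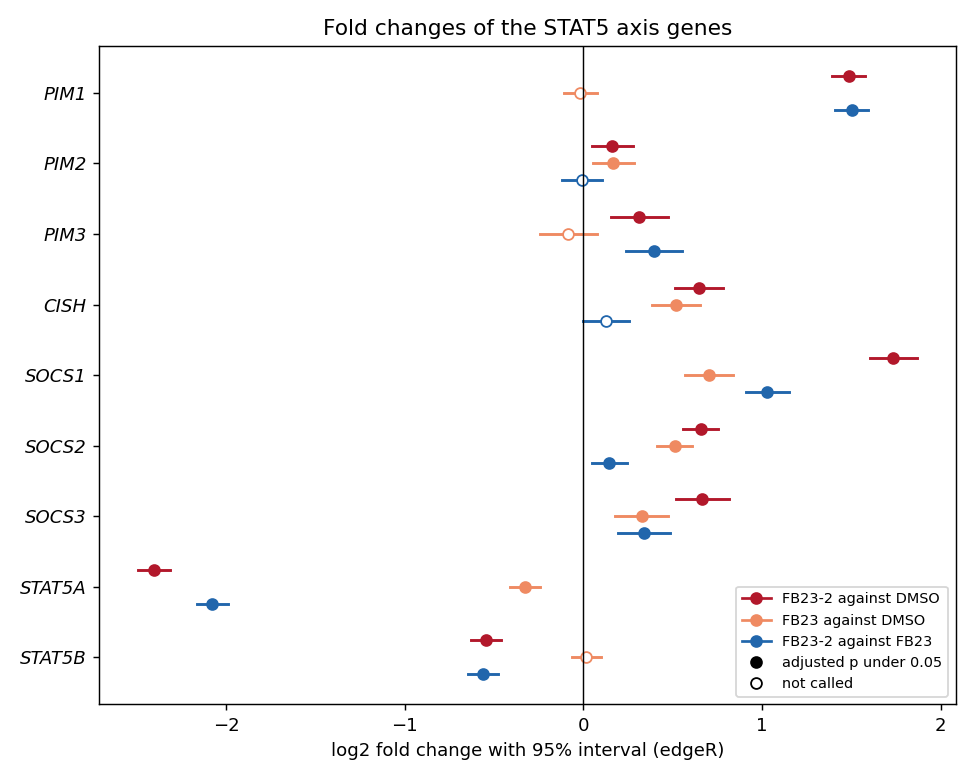
Log2 fold change of each tested STAT5 axis gene with its 95% interval (edgeR), for each compound against DMSO and for FB23-2 against FB23; filled points have an adjusted p under 0.05. SOCS1 and PIM1 lie furthest to the right with FB23-2, at 1.73 and 1.48, STAT5A lies furthest to the left at -2.40, and PIM1, PIM3 and STAT5B have open points near 0 with FB23.

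The rest of the pathway was read from 8 lists of 98 genes, of which 96 are in the tables and 73 were tested. With FB23-2 against DMSO, 46 were higher and 23 lower (94.5% called, against 82.6% of all genes). With FB23 against DMSO, 17 were higher and 12 lower (39.7% against 23.5%), and with FB23-2 against FB23, 44 were higher and 19 lower (86.3% against 81.5%). No test was made of the lists as sets, and the counts in each list below stand beside 41.3% of all genes higher and 41.3% lower with FB23-2 against DMSO, and 12.3% higher and 11.2% lower with FB23 against DMSO. The lists include genes that had enough reads for a test only with FB23-2, among them JAK3, IL3RA, CSF2RB and IL11. Such genes could hardly come out lower with FB23-2, so these counts are in part set by the filter on reads. IGF1 had enough reads only without FB23-2.

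Of the 4 JAK kinases, which phosphorylate the STAT factors, 3 rose and 1 fell with FB23-2 against DMSO. JAK1 rose by 1.57 ± 0.05 (log2, edgeR adjusted p = 2.17e-15), to 249 CPM with FB23-2, against 83.6 CPM with DMSO. JAK3, a kinase of lymphoid cytokine receptors, rose by 3.57 ± 0.32 (adjusted p = 1.13e-08) from few reads, at 3.36 CPM with FB23-2 and 0.287 CPM with DMSO. JAK2, the kinase of the erythropoietin receptor and the main route to STAT5 in red cell precursors, fell by 0.47 ± 0.08 (adjusted p = 2.58e-05), at 13.1 CPM with FB23-2 and 18.1 CPM with DMSO, a call lost on deposited TPM (-0.21, limma adjusted p = 0.0661). With FB23 against DMSO, JAK2 stood at -0.13 ± 0.08 (adjusted p = 0.234) and TYK2 alone was called of the 4, at 0.16 ± 0.06 (adjusted p = 0.0485), which 9 of 19 alternatives lost.

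Of the STAT factors outside the set, STAT2, a factor of interferon responses, rose by 1.07 ± 0.05 (log2) with FB23-2 (edgeR adjusted p = 2.31e-12). With FB23 it rose by 0.20 ± 0.05 (adjusted p = 0.0116), and leaving out DMSO replicate 1 (adjusted p = 0.0761) or FB23 replicate 2 (0.0512) lost that call. STAT6, which acts downstream of interleukin-4, rose by 0.49 ± 0.05 with FB23-2. STAT3, the factor of gp130 cytokines, whose gene lies on the minus strand with its 3' end 1380 bases beyond STAT5A, was at 177 CPM with FB23-2, 169 CPM with FB23 and 186 CPM with DMSO. Its log2 fold change with FB23-2 was -0.08 ± 0.04, which did not pass (adjusted p = 0.0871) and turned positive under upper-quartile factors (0.10), library totals (0.072) and deposited TPM (0.17). STAT3 was called higher under upper-quartile factors (edgeR adjusted p = 0.0335) and on TPM (limma adjusted p = 0.0033), but not under library totals (edgeR adjusted p = 0.113). With FB23 it fell by 0.14 ± 0.04 (adjusted p = 0.0189), a call that 6 of 19 alternatives lost.

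Of the cytokine receptors, 13 of 23 were tested, and 10 were higher and 2 lower with FB23-2 against DMSO, where 41.3% of all tested genes were higher and 41.3% lower. Among the higher ones, IL3RA, CSF2RA, CSF2RB and IL2RB had enough reads for a test only with FB23-2. Such genes could hardly come out lower, so the count of rises is in part set by the filter on reads. Over the FB23-2, FB23 and DMSO libraries CSF2RB had 42, 9 and 6 counts, and CSF2RA had 75, 6 and 18. IL21R, a lymphoid receptor, was at 62.0 ± 2.66 CPM with FB23-2, 0.791 ± 0.377 CPM with FB23 and 0.375 ± 0.244 CPM with DMSO (SD, n = 3 each). It rose by 7.34 ± 0.19 (log2, edgeR adjusted p = 5.08e-16) with FB23-2. That SE may be too small, because the DMSO libraries held few IL21R reads. IL3RA, the interleukin-3 receptor alpha chain, had 106 counts over the FB23-2 libraries, 8 over the FB23 libraries and 0 over the DMSO libraries, at least 28.9-fold higher with FB23-2 than with DMSO when DMSO is set at 3 counts over the group. EPOR, the erythropoietin receptor, fell by 0.38 ± 0.08 (adjusted p = 1.98e-04) with FB23-2, at 23.7 CPM with FB23-2 and 30.7 CPM with DMSO, a call lost on deposited TPM (-0.13, limma adjusted p = 0.129). LEPR, the leptin receptor, fell by 1.31 ± 0.10 (adjusted p = 6.09e-10) with FB23-2 and by 0.42 ± 0.09 (adjusted p = 0.0022) with FB23. Of the ligands, 4 of 12 were tested and all 4 rose with FB23-2, led by IL11 (3.77 ± 0.23, adjusted p = 4.97e-11, 6.52 CPM with FB23-2 and 0.475 CPM with DMSO), while with FB23 the 4 stood between -0.54 and 0.80 and did not pass (edgeR adjusted p from 0.185 to 0.895). IL11 had enough reads for a test only with FB23-2 (410 counts, against 26 with FB23 and 24 with DMSO). The direction of its change was therefore close to fixed by the filter on reads.

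Inhibitors outside the set went both ways with FB23-2. Of the SOCS genes outside the set, SOCS4 rose by 0.31 ± 0.08 (log2, edgeR adjusted p = 0.0022) with FB23-2. SOCS6 fell by 0.64 ± 0.11 (adjusted p = 3.44e-05), and SOCS5 fell by 0.26 ± 0.08 (adjusted p = 0.0067), a call lost under 4 of 19 alternatives. With FB23 these 3 stood between -0.10 and 0.06 and did not pass (adjusted p from 0.382 to 0.976), and SOCS7 is not analysed here. Of 14 tested phosphatases and other inhibitors, 8 rose and 5 fell with FB23-2, and 3 rose and 1 fell with FB23. DUSP1, a phosphatase of MAP kinases, rose by 2.48 ± 0.09 (adjusted p = 2.26e-14) with FB23-2, and PTPRC, the CD45 phosphatase, fell by 1.09 ± 0.06 (adjusted p = 1.40e-11) with FB23-2 and by 0.34 ± 0.06 (adjusted p = 6.27e-04) with FB23.

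Other genes reported as STAT5 targets went both ways. Of 22 tested, 12 were higher and 9 lower with FB23-2, and 8 were higher and 6 lower with FB23. CDKN1A, the cell-cycle inhibitor p21, rose by 7.13 ± 0.09 (log2, edgeR adjusted p = 1.92e-19), at 291 CPM with FB23-2 and 2.08 CPM with DMSO, and by 0.97 ± 0.14 (adjusted p = 1.61e-04) with FB23. BCL6, a transcriptional repressor that STAT5 is known to repress, rose by 5.84 ± 0.07 (adjusted p = 1.92e-19) with FB23-2. BCL2L1, which encodes the survival protein BCL-XL, rose by 0.67 ± 0.05 (adjusted p = 6.90e-10) with FB23-2 and stood at 0.11 ± 0.05 with FB23 (adjusted p = 0.128). MYC, a transcription factor of growth genes, fell by 1.83 ± 0.05 (adjusted p = 8.21e-16) with FB23-2 and by 0.30 ± 0.05 (adjusted p = 2.76e-04) with FB23. CCND2, a D-type cyclin, fell by 0.34 ± 0.05 (adjusted p = 4.57e-06) with FB23-2, a call lost on deposited TPM (-0.08, limma adjusted p = 0.257), and stood at -0.11 ± 0.05 with FB23 (adjusted p = 0.107). TNFRSF8, the CD30 receptor, fell by 5.27 ± 0.09 (adjusted p = 5.89e-18) with FB23-2, at 2.09 CPM with FB23-2 and 81.4 CPM with DMSO.

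Transcripts of proteins that PIM kinases phosphorylate were called in 9 of 9 cases with FB23-2, 5 higher and 4 lower, where 82.6% of all tested genes were called. FOXO1, a transcription factor held in the cytoplasm when phosphorylated, rose by 1.12 ± 0.12 (log2, edgeR adjusted p = 1.12e-07), and BAD rose by 0.75 ± 0.10 (adjusted p = 1.94e-06). EIF4EBP1, a repressor of cap-dependent translation, fell by 1.13 ± 0.08 (adjusted p = 4.48e-10), and CDC25A, a cell-cycle phosphatase, fell by 0.88 ± 0.05 (adjusted p = 4.75e-12). With FB23, 1 of 9 was called, MAP3K5 (the stress kinase ASK1), which fell by 0.47 ± 0.11 (adjusted p = 0.0065). These are transcript levels and say nothing of phosphorylation.

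**Figure D4:**
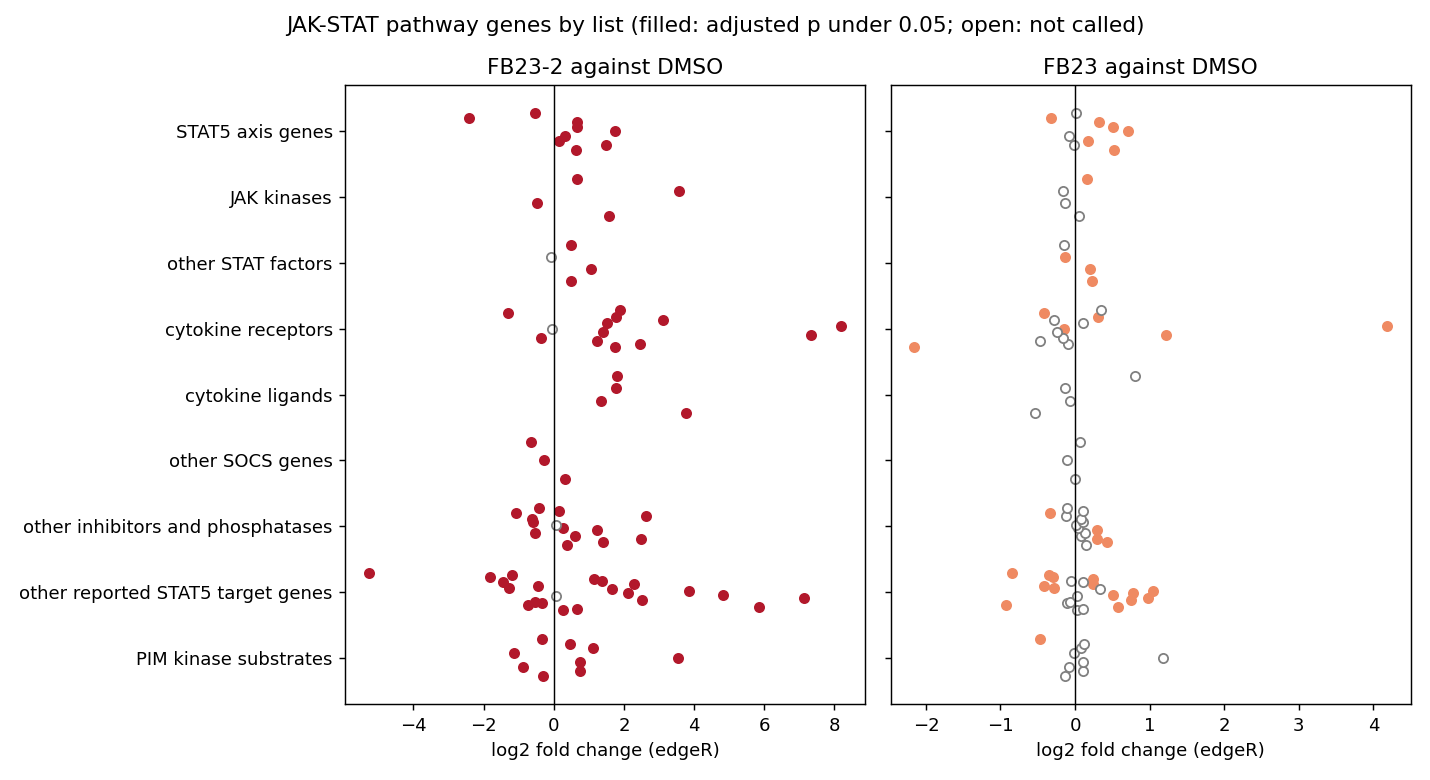
Log2 fold change of every tested gene of the STAT5 axis and of the 8 other JAK-STAT lists, with FB23-2 against DMSO on the left and FB23 against DMSO on the right (the horizontal scales differ); filled points have an adjusted p under 0.05. Receptors and ligands lie mostly to the right of 0 with FB23-2, targets spread to both sides from -5.27 to 7.13, and with FB23 most points are open and close to 0.

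Genes whose pattern over the 9 libraries was nearest to each member were found among 10912 candidates, by the root mean square difference of log2 CPM after each gene's own mean was subtracted. PIM1 was nearest to ACLY (0.034) and ANXA2 (0.036). ACLY had log2 fold changes of 1.55 with FB23-2 and 0.05 with FB23 against DMSO. STAT5A was nearest to NLE1 (0.047) and PA2G4 (0.048). STAT5B was nearest to MUM1 (0.018) and UBFD1 (0.021), the closest matches of any member. SOCS2 was nearest to RRM2 (0.031) and TTPAL (0.056), and SOCS1, whose nearest genes were the furthest off, to NRGN (0.068) and C1RL (0.078). CISH was nearest to SLC29A4 (0.059) and FTH1 (0.060), and SOCS3 to CHPF (0.052) and CHTF18 (0.062). PIM3 was nearest to ARID3A (0.048) and YBX3P1 (0.053), and PIM2 to CMTM7 (0.038) and CENPN (0.048). None of the nearest genes of a member was another member, because members were left out of the candidates.

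The upstream pattern printed for CISH was also counted over all genes. Of the tested genes with an upstream window, 713 held TTCNNNGAA at least 1 time. Of these, 282 (39.6%) were called higher and 301 (42.2%) lower with FB23-2 against DMSO, and 82 (11.5%) higher and 84 (11.8%) lower with FB23 against DMSO. Of all 9823 tested genes with a window, 40.1% were higher and 43.3% lower with FB23-2, and 12.7% higher and 11.7% lower with FB23. Of the 30 genes with at least 2 matches, 11 were higher and 11 lower with FB23-2, and 5 were higher and 5 lower with FB23. The shares with and without regard to the pattern lay close together.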

How the data were processed

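The deposited tables, 1 per library, give each gene's expected count, which per the file headers is the RSEM estimate of reads per gene, and its TPM and FPKM, both per the file headers scaled for gene length and library total (FPKM was not used here). RSEM 1.2.31 and the build GRCh38 are named in the submitters' processing notes, and per the labels' protocols RNA was extracted with TRIzol, poly(A)-selected and made into directional libraries. For the aligner, annotation release and strand setting: not given in the sources used here. Each gene is listed with 1 RefSeq transcript, whose length in bases the deposited files also give.

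Rounded expected counts entered edgeR 4.0.16 under R 4.3.3 (filterByExpr, minimum count 10 and minimum total 15; TMM factors; quasi-likelihood F test, two-sided; 1 mean per group over all 9 libraries; Benjamini-Hochberg adjustment over 13365 genes, calls at an adjusted p under 0.05). Adjusted p-values named as limma come from limma 3.58.1 on log2(TPM + 0.1) of the deposited TPM. DESeq2 1.42.0 was an alternative, and a gene whose adjusted p it gave as NA was counted as not called. The SE of a log2 fold change was worked back from the F statistic, as its size divided by the square root of F. The 95% intervals use this SE. It can be too small for a large change where a group has few reads, as for IL21R, JAK3, IL11, CDKN1A and TNFRSF8. For IL21R, with 19 counts over the DMSO libraries, it was 0.19 with FB23-2 and 0.41 with FB23 against DMSO. Shares within a family were compared by an exact permutation test. Other scalings, filters, tests, the replicate number as a block and leaving out each library were tried, 19 alternatives per comparison. The fit was tested on simulated data in which 200 genes were changed and the rest left flat. That test cannot judge the scaling where most genes are called, as with FB23-2. Loci are from GENCODE 29 on GRCh38, and upstream windows from RefSeq, GRCh38.p14.

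The members and all lists were chosen with earlier results of these data known. From each list the text names the 2 strongest called rises and the 2 strongest called falls in a comparison (some are left out for length), and always JAK2, STAT3, EPOR, BCL2L1, CCND2 and MYC; 1 gene of the rule is not reported here. For each member the 2 nearest genes are named, among those averaging 1 or more in log2 CPM. Totals ran from 12360291 to 38410750 expected counts per library, and limits from counts cover counting error only, since reads that carry no molecular identifiers can be copies of the same molecule.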

Additional observations from a re-analysis of the deposited data

How the results depend on the processing

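The counts of called members stayed within 8 to 9 of 9 for FB23-2 against DMSO, 5 to 6 for FB23 against DMSO and 6 to 9 for FB23-2 against FB23 over the 19 alternatives, and without 1 library each within 8 to 9, 5 to 6 and 7 to 8. Counts over all genes without 1 library were 10740 to 11293 for FB23-2 against DMSO, 2096 to 3303 for FB23 against DMSO and 10556 to 10980 for FB23-2 against FB23. The replicate numbers do not pair the libraries (same-number correlations from -0.18 to 0.09, and 2 of 9 libraries correlated best with their own number). With the replicate number as a block, 9, 5 and 7 members were called in the same order of comparisons, and PIM2 with FB23 was lost (0.16, adjusted p = 0.0718).

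With expected counts in place of TPM the share of PIM1 was higher by 14.8 points with FB23-2 against DMSO and by 15.8 against FB23 (16.5 and 17.6 on TPM), and the difference for PIM2 was -8.40 and -10.3 points (-9.81 and -12.0 on TPM). The sign turned for PIM2 with FB23-2 against FB23 (-0.01), to 0.024 with DESeq2 factors, 0.16 with upper-quartile factors, 0.12 with library totals, 0.025 with the 1 CPM filter, 0.024 with the DESeq2 Wald test and 0.23 on TPM, and it ran from -0.039 to 0.062 without 1 library. It also turned for PIM1 with FB23 against DMSO (0.0063 with library totals, 0.014 without the filter), STAT3 with FB23-2 against DMSO (0.10 with upper-quartile factors, 0.072 with library totals, 0.17 on TPM), and, with FB23-2 against FB23 on TPM, EPOR (0.028) and CCND2 (0.0091). STAT5B with FB23 against DMSO became -0.19 when summed with STAT5A (adjusted p = 0.0018). For PIM2, PIM1 and STAT3 these values were not called on the reported scale, while EPOR and CCND2 were, and the cause was not tested. The turned PIM2 value was called under upper-quartile factors (edgeR adjusted p = 0.0107), library totals (0.0417) and on TPM (limma adjusted p = 0.0011). That of STAT3 was called under upper-quartile factors (edgeR adjusted p = 0.0335) and on TPM (limma adjusted p = 0.0033). Of 513 values of members under alternatives, 486 kept direction and side of the threshold. Sizes moved also where calls held. With FB23-2 against DMSO the log2 fold change ran from 1.70 to 1.97 for SOCS1 and from 1.46 to 1.73 for PIM1. It ran from 0.60 to 0.89 for CISH, 0.61 to 0.91 for SOCS2, 0.58 to 0.91 for SOCS3 and -2.43 to -2.15 for STAT5A. With 3 libraries per group no permutation test can pass 0.05.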
